A study of Mus musculus with 6 samples.

Results

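The clustered histone genes of the mouse were examined in adult neural stem cell cultures by ATAC-seq, a method that maps open chromatin by where a transposase inserts sequencing adapters. The members were the GENCODE M21 protein-coding genes whose symbol begins with Hist1h, Hist2h, Hist3h or Hist4h, which gave 67 of 21951 protein-coding genes. A member was called occupied in a library when any part of a peak lay within 1 kb of one of its annotated transcript starts on GRCm38. The Hist1 cluster on chromosome 13 held 54 members, the Hist2 cluster on chromosome 3 held 10, the Hist3 cluster on chromosome 11 held 2 and Hist4h4 on chromosome 6 stood alone. By product there were 6 linker histone (H1) genes, 18 H2A, 18 H2B, 12 H3 and 13 H4 genes.

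Cultures came from the subependymal zone, the neurogenic niche that lines the lateral ventricles, of mice aged 10 weeks. All of them, both groups alike, were Srr2 del/del: they lacked Srr2, an enhancer of Sox2, which had been removed from the mouse line with CRISPR-Cas9. Proliferating cultures (PROLIF, 3 libraries) had spent 2 days in vitro with mitogens by the sample labels (3 days by the design text of the series), and early differentiating cultures (DIFF, 3 libraries) had 2 days with mitogens followed by 1 day without them in medium with fetal bovine serum. Removal of mitogens and addition of serum went together, and both groups are mutant, since wild-type cultures were not analysed here.

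Nucleosomes are built from H2A-H2B dimers and an H3-H4 tetramer, and H1 binds the linker DNA between them. The clustered genes are mostly replication-dependent: they are transcribed in S phase, when new DNA has to be packaged, carry no introns in their main transcripts, and end in a stem-loop that is bound by SLBP in place of a poly(A) tail. Many copies encode the same protein, and H2A and H2B genes often stand head to head across a short shared promoter. A few members, such as Hist1h1t, Hist1h2aa and Hist1h2ba, are known as testis histones.

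The 6 peak lists held 60006 to 88039 peaks. The local background at the peaks served as a guide to depth because read totals were not used here. Its 1st percentile over the peaks was 2.85 to 3.63 reads in 5 libraries and 6.01 reads in DIFF replicate 4. Of the 8 neural stem and progenitor markers, 7 had a promoter peak in all 6 libraries and Slc1a3 in 5. Of the other marker lists, 2 of 4 neuronal genes, 0 of 4 genes of mature oligodendrocytes, 1 of 4 microglial genes (P2ry12) and 0 of 4 endothelial genes had one in all 6. Pecam1, of endothelium, had a peak in the 3 PROLIF libraries and in no DIFF library, at percentiles of 44.1 to 55.1, and its part in the results was not tested. In bulk libraries such as these, fewer cells with an open site and less cutting per cell cannot be told apart.

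The sequences shown are the promoters on which the values below turn, read from the GRCm38.p6 reference of RefSeq, with motif letters in capitals on either strand. The first is the stretch between the starts of Hist1h2ah (minus strand) and Hist1h2bk (plus strand), at chr13:22035644-22035820, plus strand, where the peaks ranked highest. The second is the stretch between the testis genes Hist1h2ba (minus) and Hist1h2aa (plus), at chr13:23934157-23934436, plus strand, where peaks were mostly missing. The other 4 are the 150 bases before the RefSeq start, on the strand of the gene: Hist1h4k (chr13:21750554-21750703, minus), which had the lowest rank of the H4 genes, Hist1h4c (chr13:23698459-23698608, minus), which stood higher, Hist1h1c (chr13:23738657-23738806, plus), a linker histone gene, and Hist3h2ba (chr11:58948761-58948910, plus), which differed between states. Capitals mark the CCAAT box (CCAAT), the TATA box (spelled TATAAA), most of the octamer bound by POU factors (spelled ATTTGCA), the core of an H4 promoter element (spelled GGTCC), the H1 box (spelled AAACACA), the GC box (spelled GGGCGG) and a motif of E2F factors (spelled TTCGCGC), and motifs that overlap run together.
Hist1h2ah/Hist1h2bk: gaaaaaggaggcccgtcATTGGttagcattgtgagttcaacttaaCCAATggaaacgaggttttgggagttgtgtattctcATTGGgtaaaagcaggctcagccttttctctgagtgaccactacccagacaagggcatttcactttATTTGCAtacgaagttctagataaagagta
Hist1h2ba/Hist1h2aa: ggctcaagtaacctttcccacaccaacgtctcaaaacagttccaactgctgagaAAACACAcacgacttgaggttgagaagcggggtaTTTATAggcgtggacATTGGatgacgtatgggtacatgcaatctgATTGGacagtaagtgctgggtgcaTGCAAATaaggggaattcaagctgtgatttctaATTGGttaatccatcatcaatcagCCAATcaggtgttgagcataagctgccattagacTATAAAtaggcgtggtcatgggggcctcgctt
Hist1h4k: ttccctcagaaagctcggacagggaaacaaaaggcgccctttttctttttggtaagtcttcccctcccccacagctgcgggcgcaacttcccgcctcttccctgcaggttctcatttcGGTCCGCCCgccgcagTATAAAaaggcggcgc
Hist1h4c: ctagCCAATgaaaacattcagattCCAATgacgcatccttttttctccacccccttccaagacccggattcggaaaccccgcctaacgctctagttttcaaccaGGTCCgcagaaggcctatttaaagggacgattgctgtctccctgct
Hist1h1c: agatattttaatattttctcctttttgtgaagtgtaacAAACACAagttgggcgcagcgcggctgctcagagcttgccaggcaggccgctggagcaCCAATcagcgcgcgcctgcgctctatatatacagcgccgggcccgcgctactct
Hist3h2ba: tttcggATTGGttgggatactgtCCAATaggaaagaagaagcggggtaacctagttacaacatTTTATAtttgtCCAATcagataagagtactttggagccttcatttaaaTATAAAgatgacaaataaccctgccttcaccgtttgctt

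Motif content went with histone type. In the 200 bases before the RefSeq start of the 61 members that could be matched to one, CCAAT was present in 82.0% against 31.7% of all protein-coding promoters. It was found before 6 of 6 H1, 18 of 18 H2A, 15 of 15 H2B and 8 of 10 H3 genes, but before 3 of 12 H4 genes. The octamer bases ATTTGCA stood in 21.3% of members against 2.77% of all promoters, before 7 H2A and 6 H2B genes and no gene of another type. The H4 element GGTCC was before 11 of 12 H4 genes, while over all members it was in 36.1% against 35.1% of all promoters. The H1 box AAACACA was before 5 of 6 H1 genes and in 13.1% of members against 4.33% of all promoters. TATAAA was in 42.6% of members against 9.28%, GGGCGG in 27.9% against 37.5% with 9 of the 12 H4 genes, and TTCGCGC in 14.8% against 1.18%. The shares over all promoters were taken before GENCODE gene starts, unlike those of the members. Before GENCODE starts the 67 members had CCAAT in 80.6%, ATTTGCA in 20.9%, GGTCC in 32.8% and AAACACA in 11.9%. There TATAAA was in 43.3%, GGGCGG in 26.9% and TTCGCGC in 10.4%. A match is a description of letters in the window and says nothing of binding.

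The 3′ stem-loop, which marks a gene as replication-dependent, was searched as 6 paired bases around a loop of 4 bases within 100 bases after the stop codon. It was found in 62 of 67 members, against 916 of 21695 other genes (4.22%), between 22 and 59 bases after the stop codon. The arms are in capitals in the forms shown.
Most frequent form, 38 members: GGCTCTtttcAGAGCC
Form of 8 H4 genes: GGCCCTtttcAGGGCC
The first form was found after 1 gene outside the clusters and after no H4 gene. All 13 H4 genes had other arms, most often those of the second form, while every stem-loop found after an H1, H2A, H2B or H3 gene had the arms of the first form. No stem-loop of this kind was found after Hist2h2be, Hist1h2an, Hist1h2bp, Hist1h2bq and Hist1h2br. The search began at the last annotated stop codon of a gene, so a stem-loop after an earlier stop codon would be missed. The testis genes Hist1h1t, Hist1h2aa and Hist1h2ba each had one, so the stem-loop did not separate them from members with open promoters.

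Promoter peaks were almost universal among the clustered histone genes. In all 6 libraries a peak lay within 1 kb of the start of 63 of 67 members (94.0%), against 13402 of 21951 protein-coding genes (61.1%). Hist1h1d and Hist1h1t had no peak in any library (2.99%), against 30.8% of all genes. The start base itself lay inside a peak in all 6 libraries for 61 members (91.0%), against 55.1% of all genes. The number of occupied members was 65, 63 and 63 in PROLIF replicates 1, 2 and 4 and 63, 63 and 65 in DIFF replicates 1, 2 and 4.

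The 4 exceptions were of different kinds. Hist1h1d, a somatic linker histone gene on chromosome 13 from 23553262 to 23560686, is annotated in GENCODE M21 with a start 1770 bp upstream of its RefSeq start. At the RefSeq start a peak was present in all 6 libraries, at percentiles of 89.8, 88.0 and 89.5 in PROLIF and 83.7, 83.4 and 88.4 in DIFF, so its absence rested on the annotated start. The percentile of a peak is the share of peaks in the same library with a smaller −log10 p, and it is used because the lists are not normalized to each other. The testis linker histone gene Hist1h1t (23695814 to 23696725) had no peak at either start, although it lies between Hist1h2bc, occupied at percentiles of 95.4 to 98.4, and Hist1h4c, at 84.3 to 92.5. The testis pair Hist1h2ba and Hist1h2aa shared 1 narrow peak in 2 libraries only, of 84 bp at percentile 35.3 in PROLIF replicate 1 and of 118 bp at percentile 44.8 in DIFF replicate 4. These were the libraries with the longest lists of their state, and the peak lay inside Hist1h2ba (chr13:23933812-23933895 in PROLIF replicate 1) rather than over either start. No peak thus covered the start of any of the 3 testis genes. Where no peak was called, the signal was below what MACS2 accepts, which does not show closed chromatin. At RefSeq starts, 58 of 61 matched members were occupied in all 6 libraries.

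**Figure D1:**
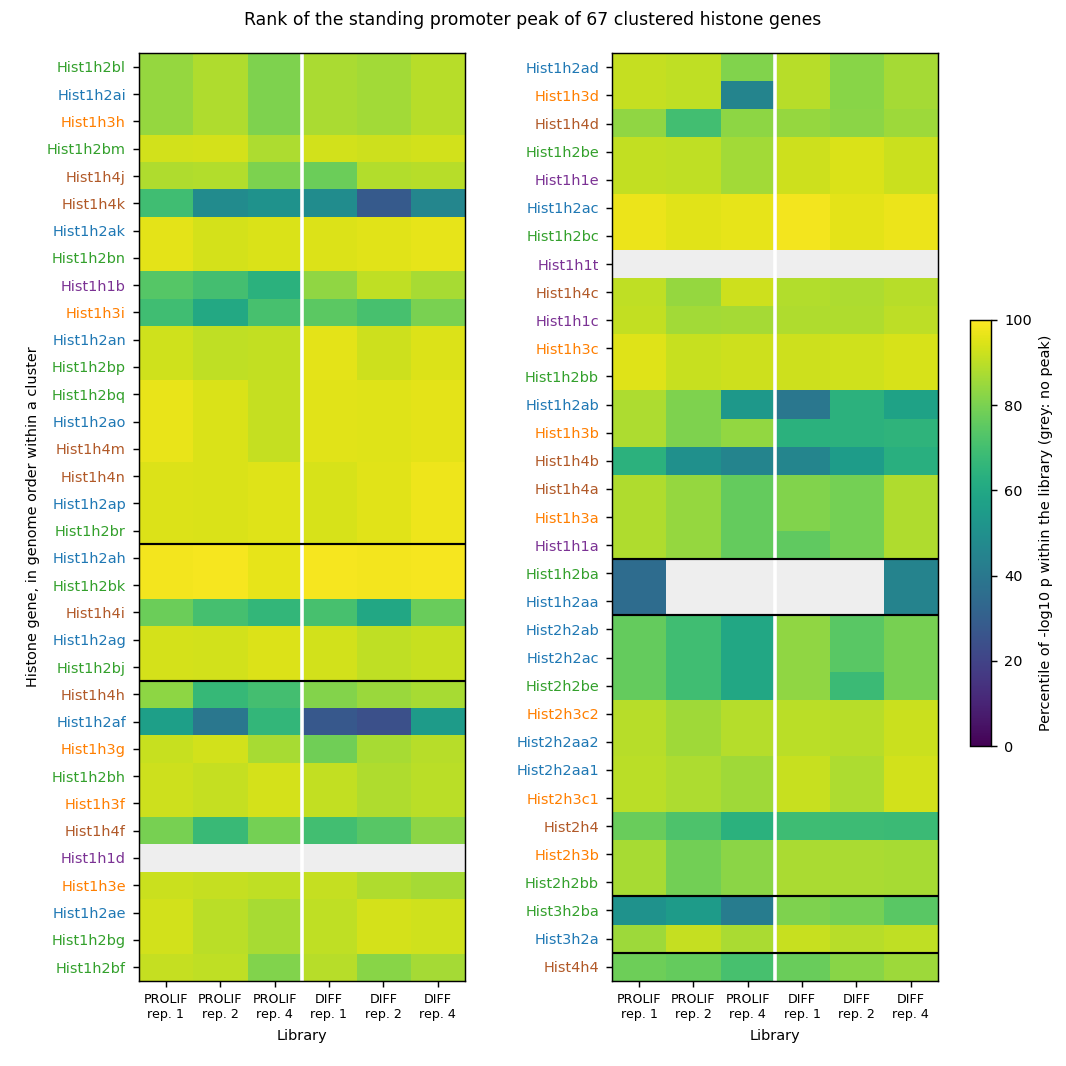
Heat map of the percentile of −log10 p of the strongest peak within 1 kb of each histone gene start (rows, in genome order, symbols coloured by type: purple H1, blue H2A, green H2B, orange H3, brown H4) in each library (columns), with black lines between clusters and blocks and grey where no peak was called. Of the 67 genes, 63 are filled in all 6 columns, Hist1h1d and Hist1h1t are grey throughout, and Hist1h2ba and Hist1h2aa are filled in 2.

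The strongest peak within 1 kb of a start, taken as the promoter peak of the gene, was wider but not more enriched than at other promoters. Among genes occupied in all 6 libraries, the median over members of the median width was 1080 bp, against 865 bp over all such genes, and 41 of 63 members (65.1%) had a median width above 1 kb, against 32.8%. The median percentile was 88.7 against 87.3, and 38 members (60.3%) stayed above percentile 80 in every library, against 51.2%. By library, the median member peak had a fold enrichment over local background of 8.33, 7.75 and 7.66 in PROLIF and 7.78, 8.97 and 7.63 in DIFF, while the median over all promoter peaks was 8.92 to 11.3. The member value was the lower in each of the 6 libraries. Folds over all member peaks ran from 2.56 to 16.7, from pileups of 19 to 281 reads at the summit.

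Many members shared their peak with a neighbour. The occupied members stood on 38 to 40 different peaks per library, 18 to 20 of which served 2 or more members, so that a peak stood for 1.57 to 1.67 members. Members are for this reason not independent of each other. In genes with a median length of 539 bp, a promoter peak reached well into the gene: peaks covered at least 50% of the gene body in 44 of 63 members, and the median share was 64.7 to 75.3% by library. Of the 63, 44 had their summit within 300 bp of the start, 34 of them upstream of it, at a median of -87.0 bp. In 8 members the summit lay more than 1 kb away, at a neighbouring histone gene, past the end of the gene or, in Hist1h1e, inside the gene itself.

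**Figure D2:**
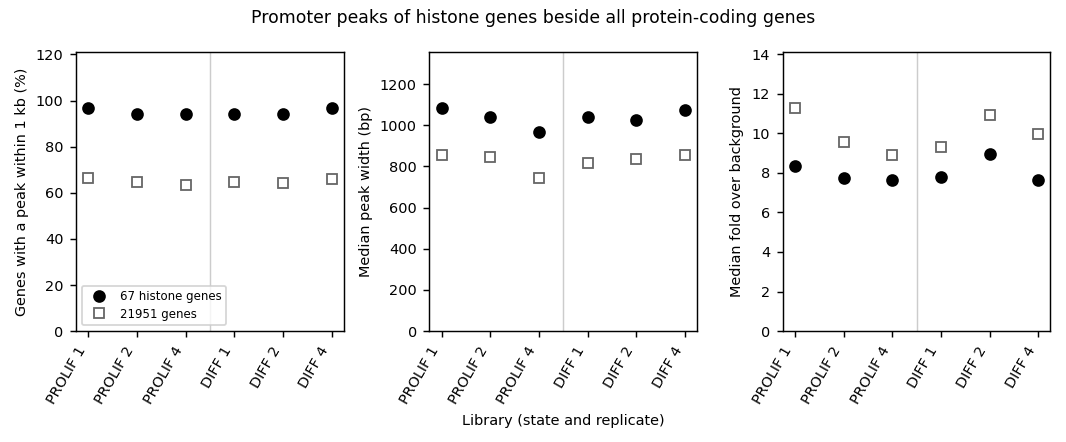
Share of genes with a peak within 1 kb of a start, median promoter peak width in bp, and median fold enrichment over local background, by library, for the 67 histone genes (filled circles) and all 21951 protein-coding genes (open squares). In each library the histone genes are above all genes in share (94.0 to 97.0% against 63.3 to 66.3%) and width (965.5 to 1086 bp against 744 to 856 bp) and below them in fold.

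The Hist1 cluster fell into 4 blocks separated by more than 100 kb. The first block, from 21715763 to 21837530 on chromosome 13, held 18 members, all occupied in the 6 libraries, with a median percentile of 92.8 and a median width of 1133.5 bp. The second, of 5 members within 8.51 kb, was the most densely covered. Peaks lay over 26.6 to 34.3% of a 10.5 kb span that held it with its flanks. In spans drawn in the same way the share was 9.6 to 12.4% for the first block and 9.23 to 11.1% for the third. The third block, of 29 members from 23531050 to 23764406, had a median percentile of 88.0 and held both Hist1h1d and Hist1h1t. The fourth block was the testis pair alone.

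Members of the smaller clusters were all occupied in the 6 libraries. In Hist2, on chromosome 3 from 96219865 to 96270132, the median percentile was 86.9 and the median width 979 bp. Hist2h2ab, Hist2h2ac and Hist2h2be, an H2A-H2A-H2B group, stood lowest there apart from Hist2h4. The strongest peak within 1 kb of Hist2h2ac was at percentiles of 76.4, 69.4 and 60.1 in PROLIF and 83.5, 74.4 and 79.5 in DIFF. In PROLIF replicate 4 and DIFF replicates 1 and 2 it lay over Hist2h2ab and did not reach the Hist2h2ac start. Over the Hist2h2ac start itself the state means were 66.7 ± 11.3 in PROLIF and 75.1 ± 6.05 in DIFF (SD, n = 3). In 1 library, DIFF replicate 4, the peaks of this group had run together into a single peak of 2480 bp, against 657 to 1215 bp in the other 5 libraries. Hist2h3c2 with Hist2h2aa2, and Hist2h3c1 with Hist2h2aa1, are mirrored copies, and their peaks were at percentiles of 85.9 to 91.8 and 85.8 to 93.2. Hist2h3b and Hist2h2bb shared a peak of 852 to 1910 bp at percentiles of 78.8 to 87.2. Hist2h4, the H4 gene of the cluster, was at percentiles of 77.2, 72.2 and 63.8 in PROLIF and 68.9, 68.5 and 68.2 in DIFF.

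In Hist3, the H2A gene Hist3h2a had a peak of 1259 to 1471 bp at percentiles of 85.5, 91.2 and 87.2 in PROLIF and 91.5, 89.4 and 90.3 in DIFF, and its states overlapped. Its neighbour Hist3h2ba is described with the states. Hist4h4, the isolated H4 gene (chr6:136801553-136804415), had a peak of 970 to 1151 bp at percentiles of 78.1, 76.4 and 70.9 in PROLIF and 77.3, 82.1 and 85.3 in DIFF, also with overlap. The peak of Hist4h4 was wider than that of Hist1h4k, Hist1h4b and Hist1h4i, described below.

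H2A and H2B genes, whose products pair in the nucleosome, carried the strongest peaks, but mostly in repeated sequence, as described below. Of 13 head-to-head pairs, 12 joined an H2A and an H2B gene with starts 176 to 306 bp apart, and 1, Hist1h2bh with Hist1h3f, joined an H2B and an H3 gene 660 bp apart. In 11 of the 13 the same peak served both genes in all 6 libraries. Members in such pairs had a median percentile of 92.8 and a median width of 1145.25 bp, and the others 86.9 and 1020 bp, with no test since pairs share peaks.

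Hist1h2ah and Hist1h2bk, whose shared promoter with 3 CCAAT boxes and the octamer bases is printed first above, had the highest rank of all, with members ordered by their lowest percentile over the 6 libraries. Their peak was at percentiles of 98.3, 98.5 and 96.2 in PROLIF and 98.5, 98.4 and 98.5 in DIFF. Its fold enrichment was 13.5, 13.1 and 11.0 in PROLIF and 14.2, 16.7 and 14.6 in DIFF, each DIFF value above each PROLIF value. Fold was not tested between states, and the lists are not normalized to each other. The percentiles overlapped, and the pair did not pass the test of rank (change in score of 0.143, adjusted p = 0.444 in limma). Of the sequence words described below, 66.2% were unique in the window of each gene. The peak was 1152 to 1324 bp wide. Hist1h2ac and Hist1h2bc followed, at percentiles of 97.0, 95.4 and 96.2 in PROLIF and 98.4, 95.8 and 97.0 in DIFF. Next by lowest percentile came Hist1h2ap, Hist1h2br and Hist1h4n, counted on the same peak, at 94.1 to 97.4, where the sequence does not tell copies apart.

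H4 genes stood at lower ranks when measured over their own starts. Since the strongest peak within 1 kb may belong to a neighbour, the peak that covers the start base was also taken. Over the 61 members for which it was present in all 6 libraries, its median percentile was 92.5 for 17 H2B, 90.7 for 16 H2A, 81.8 for 11 H3, 79.8 for 4 H1 and 76.7 for 13 H4 genes. The corresponding median widths were 1157, 1077, 675, 1028 and 713.5 bp. Within types the ranges overlapped: H4 genes ran from 48.4 to 89.0 and H2B genes from 64.7 to 98.5. The H2B genes include Hist1h2be, taken at an annotated start 35168 bp before its start codon. Type also went with sequence repeats, described below.

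Hist1h4k, whose promoter in the list above has the TATA box, the H4 element and the GC box but no CCAAT box, was the lowest H4 gene. Its peak was at percentiles of 69.4, 48.2 and 50.9 in PROLIF and 48.5, 28.3 and 45.9 in DIFF, and was 333 to 607 bp wide. Hist1h4b was close to it, at 64.2, 50.2 and 45.3 in PROLIF and 45.7, 55.1 and 63.1 in DIFF, with a width of 323 to 465 bp. Both had states that overlapped in percentile. Hist1h4c, which has CCAAT as well as GGTCC, was at 90.4, 84.3 and 92.5 in PROLIF and 88.6, 87.7 and 89.4 in DIFF, and its peak was 1016 to 1342 bp wide. Hist1h4j and Hist1h4h have no CCAAT box either, yet stood at 77.6 to 89.1 and 66.8 to 87.0, both above Hist1h4k in median. Hist1h4n illustrates the choice of peak: it stood at 94.1 to 97.4 on the peak of Hist1h2ap and Hist1h2br, but the peak over its own start was at 50.2 to 73.9.

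Linker histone genes had the widest peaks only when the strongest peak within 1 kb was taken, which for Hist1h1a was mostly that of a neighbour. By that rule the median width of the 4 occupied H1 genes was 1742.25 bp, against 969.5 to 1157 bp for the other types, while over their own starts it was 1028 bp, below the H2A and H2B genes. The peak of Hist1h1c ran across the gene, with 1650, 1430 and 1388 bp in PROLIF and 1765, 1860 and 1691 bp in DIFF, every DIFF value above every PROLIF value. Of all genes, 9.42% were likewise wider in every DIFF library, and Hist1h1c did not pass the test of width (adjusted p = 0.472 in limma). Its percentiles overlapped, at 86.2 to 90.8. Hist1h1e had a peak 1961, 1930 and 1889 bp wide in PROLIF and 2186, 1163 and 1451 bp in DIFF. The rule gave the same peak to the H2B gene Hist1h2be. The annotated start of Hist1h2be (23621124) lies inside Hist1h1e and 35168 bp before the Hist1h2be start codon. The peak is thus at Hist1h1e, and a promoter near the coding part of Hist1h2be was not measured. This was the highest median width of all members (1909.5 bp). In DIFF replicates 2 and 4 it had separated into pieces. The strongest piece ended at 23621852 and 23622047, short of the Hist1h1e start, which another piece covered. Hist1h4a and Hist1h3a came next with a shared peak of 1024 to 1864 bp, which was also the strongest within 1 kb of Hist1h1a except in DIFF replicate 1, where that of Hist1h1a was 394 bp wide.

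Among members occupied in all 6 libraries, the narrowest peaks by median width were those of the H2A gene Hist1h2af, the H3 gene Hist1h3i and Hist1h4b. Hist1h3i had a peak of 303 to 380 bp in all 6 libraries, at percentiles of 69.2, 60.5 and 70.8 in PROLIF and 74.7, 71.0 and 79.7 in DIFF, with no overlap between states. Of all genes, 26.1% were likewise higher in every DIFF library, and Hist1h3i did not pass the test of rank (adjusted p = 0.346 in limma). Hist1h2af had a median width of 261 bp and is described with the states.

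**Figure D3:**
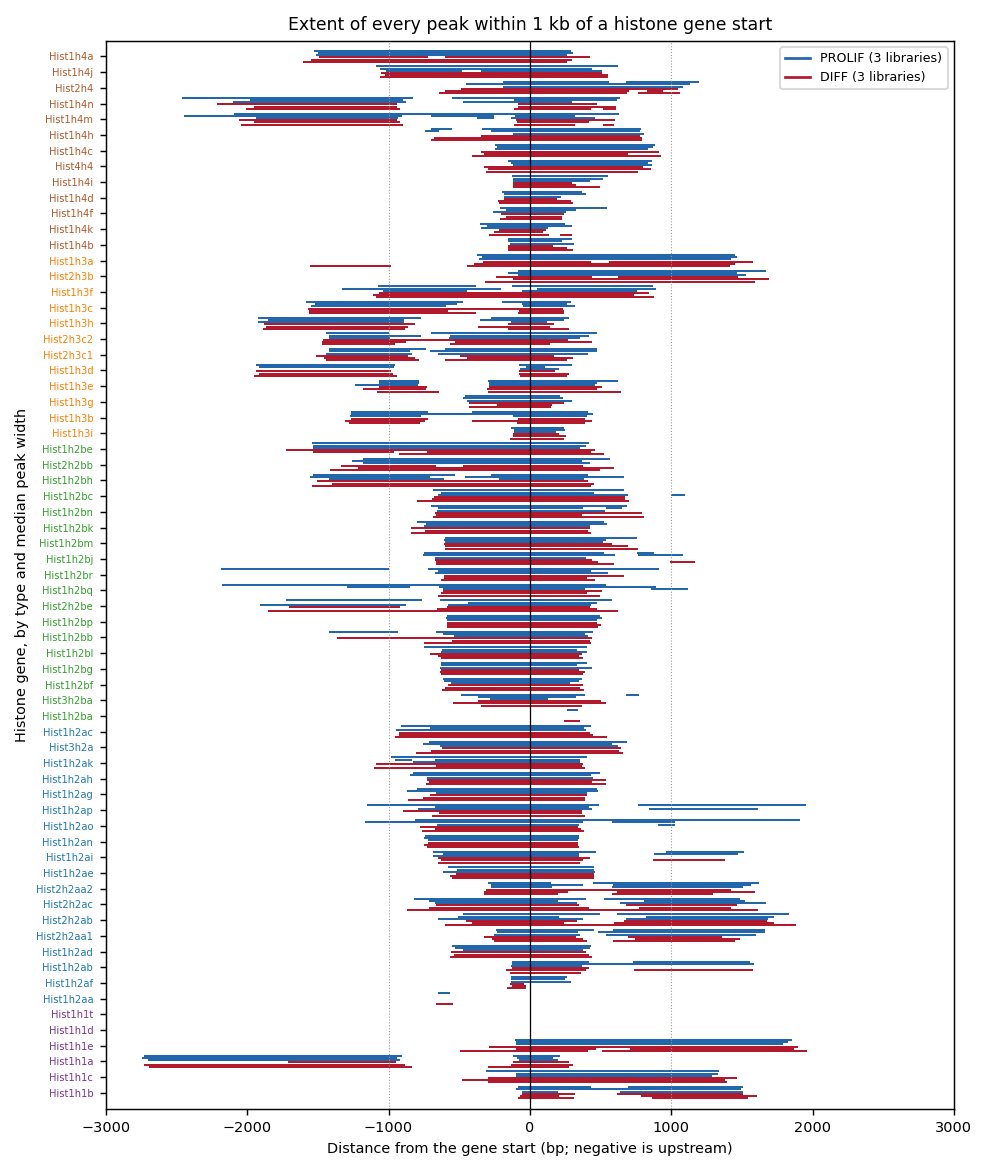
Extent of every peak within 1 kb of a histone gene start in bp from the annotated gene start (negative is upstream, dotted lines at 1 kb), with 1 line per peak and library (blue PROLIF, red DIFF) and genes ordered by type and median width. Peaks of the H1 genes Hist1h1c and Hist1h1e extend downstream across the gene, in 2 pieces for Hist1h1e in DIFF replicates 2 and 4, those of most paired H2A and H2B genes lie on both sides of the start, and the H4 genes from Hist1h4b to Hist1h4i have short peaks at the start.

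Sequence repeats limit what can be placed at 1 copy. Words of 32 bases that occur once in the genome made up a median of 75.9% of the window within 1 kb of the start, 16.8% of the coding part and 86.4% of the rest. In 40 members the share was below 80%. Hist1h2ao, Hist1h2ap, Hist1h2bq and Hist1h2br had no such word (0%), and Hist1h4m and Hist1h4n had 4.15% and 4.2%, so their peaks, at percentiles of 91.4 to 97.4, cannot be given to one copy. The 10 occupied members with under 50% of unique words had a median percentile of 95.0, the 40 with under 80% had 91.6, and the 23 with at least 80% had 78.7, with a lowest value of 47.2. Of H2A and H2B genes among these 23, Hist1h2af, Hist1h2ab, Hist3h2ba, Hist2h2be and Hist2h2ab had median percentiles of 47.2, 61.1, 64.7, 72.9 and 75.4. The others, Hist3h2a and Hist1h2be, had 89.8 and 91.5. H4 genes among the 23 ran from 52.7 (Hist1h4b) to 89.0 (Hist1h4c). These ranges overlapped, and the parts of type and of repeats were not tested apart. How reads that fit several copies were treated is not given in the sources used here, and the part of repeats in the rank of these peaks was not tested.

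**Figure D4:**
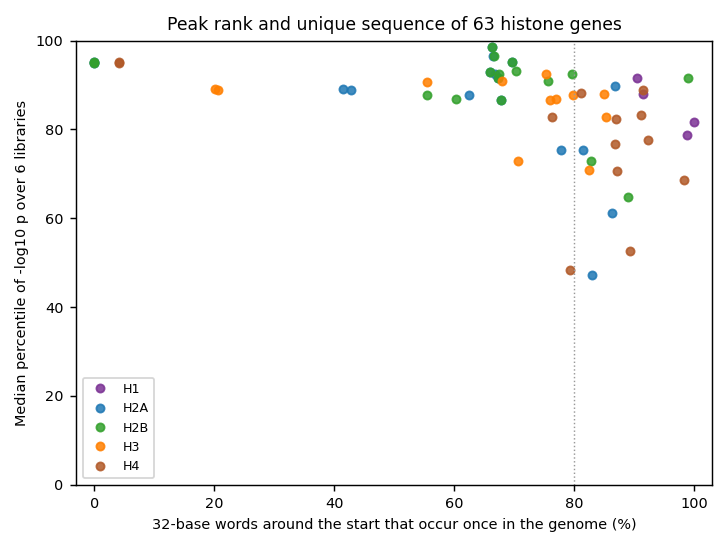
Median percentile of −log10 p of the promoter peak over 6 libraries (vertical axis) against the share of 32-base words within 1 kb of the start that occur once in the genome (horizontal axis, dotted line at 80%), for 63 histone genes coloured by type. Genes at 0 to 50% lie between percentiles 88.8 and 95.3, and those below percentile 80 lie at or above 70.6% of unique words.

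The comparison of states asked whether the promoters of genes that are used in S phase differed after mitogens were withdrawn. Occupancy did not separate the states: the mean number of occupied members was 63.7 ± 1.15 (SD, n = 3) in both. No member was occupied in every library of one state and in none of the others, against 0.159% of all genes for PROLIF and 0.287% for DIFF. PROLIF member peaks had a median width of 1030 ± 60.7 bp, and those of DIFF 1046 ± 25.2 bp (SD, n = 3), a difference within the spread between libraries. The median percentile was 86.2 ± 2.48 in PROLIF and 87.8 ± 0.709 in DIFF, while over all promoter peaks it was 83.6 ± 2.25 and 86.8 ± 1.31. These are values over the members and carry no test.

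Gene by gene, promoter peaks were compared with limma on the normal score of the percentile, in a fit over 12130 promoters in which genes with the same peaks count once. The 63 members made up 42 of these. All promoters together shifted up by 0.148 score units in DIFF, and members by 0.101. Of the 42, 2 were higher in DIFF at an adjusted p under 0.05 (4.76%), against 7.13% of all promoters, and 1 was lower (2.38%), against 1.44%. After the shift of all promoters was removed, 2 were higher (4.76%), against 2.22%, and 3 lower (7.14%), against 4.48%. By ranges, 7 of 63 members (11.1%) were higher in every DIFF than in every PROLIF library, against 26.1% of all genes, and 5 (7.94%) were lower in every one, against 4.51%. The percentile of a member was on average higher in DIFF for 44 of 63 (69.8%), against 76.2% of all genes.

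Hist3h2ba, an H2B gene on chromosome 11 from 58948920 to 58949533, rose most. Its peak was at percentiles of 51.0, 54.9 and 41.9 in PROLIF and 80.5, 79.1 and 74.4 in DIFF, without overlap. Its fold enrichment was 5.69, 5.75 and 5.06 in PROLIF and 8.63, 10.0 and 7.39 in DIFF. The change in score was 0.79 ± 0.19 (SE, limma, n = 3 each, adjusted p = 0.00627), and 0.65 with an adjusted p of 0.0142 once the shift of all promoters was removed. The peak covered the start in every library, and 88.9% of the words in the window were unique. Without DIFF replicate 1 the adjusted p was 0.0584 (limma). The neighbour Hist3h2a did not pass the test.

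Hist1h3b, an H3 gene on chromosome 13 from 23752267 to 23752886, fell. It was at percentiles of 87.8, 80.6 and 83.6 in PROLIF and 63.7, 64.4 and 65.2 in DIFF, with a change in score of −0.63 ± 0.16 (SE, limma, n = 3 each, adjusted p = 0.00896). Of the words in its window 70.6% were unique, and 5.0% of those in its coding part. In DIFF replicate 2 the strongest peak within 1 kb was that of the H2A gene Hist1h2ab upstream. Over the start of Hist1h3b itself the percentile there was 55.0, and the state means were 84.0 ± 3.62 and 61.3 ± 5.51 (SD, n = 3). Hist1h2ab shares this region and had a change of −0.60 with an adjusted p of 0.0508 (limma), which was 0.0413 after the shift was removed. The peak over its own start was at 59.7, 80.6 and 53.5 in PROLIF and 39.8, 64.4 and 57.7 in DIFF, with overlap between states. The third member that was lower after the shift was removed was the H3 gene Hist1h3g, at 91.6, 93.2 and 87.0 in PROLIF and 78.3, 86.9 and 89.2 in DIFF (adjusted p = 0.176 in limma as fitted and 0.0458 after removal).

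Hist1h1b, a linker histone gene, rose by the rule but not at its promoter. Its strongest peak within 1 kb was at percentiles of 73.8, 70.1 and 63.9 in PROLIF and 83.5, 90.4 and 87.0 in DIFF (change of 0.63 ± 0.15, SE, limma, n = 3 each, adjusted p = 0.00692). The summit of this peak lay 1084 to 1192 bp downstream of the start, past the end of the gene. The peak over the start, which was the same peak in PROLIF replicate 2, was at 71.1, 70.1 and 56.4 in PROLIF and 36.2, 19.6 and 61.1 in DIFF. With starts and peaks matched within 500 bp the change was −0.72, with an adjusted p of 0.0665 (limma). The states overlapped over the start, and the call rests on the distance used. Without DIFF replicate 2 the adjusted p of the strongest peak was 0.0665 (limma).

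Hist1h1a showed the reverse of this. Its strongest peak within 1 kb was mostly that of Hist1h3a and did not pass the test (−0.08, adjusted p = 0.769 in limma). The peak over its own start was at 67.5, 56.7 and 41.1 in PROLIF and 75.6, 79.0 and 84.9 in DIFF, without overlap. With starts and peaks matched within 500 bp its change was 0.71, with an adjusted p of 0.0114 (limma).

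The H4 gene Hist1h4h passed the test of rank only when PROLIF replicate 1 was left out. Its peak was at percentiles of 83.2, 66.8 and 70.3 in PROLIF and 81.5, 85.1 and 87.0 in DIFF, with overlap between states. The change in score was 0.38 with an adjusted p of 0.0991 as fitted, and 0.54 with an adjusted p of 0.0115 without that library (limma).

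**Figure D5:**
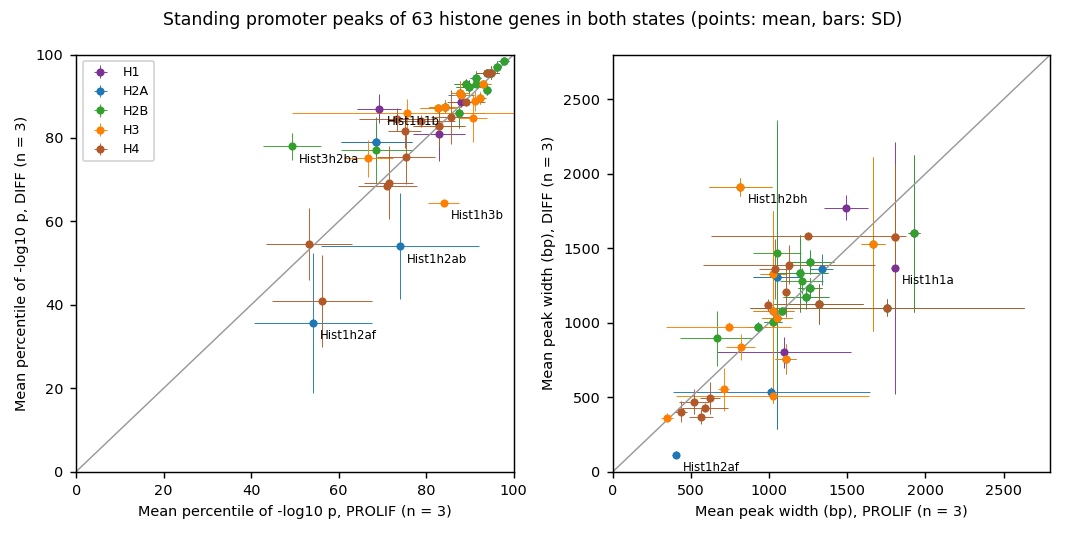
Mean percentile of −log10 p (left) and mean width in bp (right) of the promoter peak in DIFF against PROLIF for 63 histone genes coloured by type, with bars for the SD over 3 libraries and the line of equality in grey. Hist3h2ba and Hist1h1b lie above the line in percentile and Hist1h3b and Hist1h2ab below it, while in width Hist1h2bh lies above and Hist1h2af below.

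Width passed the test in no member. With limma on log2 width, 0 of 42 were wider or narrower in DIFF at an adjusted p under 0.05, against 0.0824% and 0.066% of all promoters, and 4 and 3 were so at an unadjusted p under 0.05, against 5.24% and 3.31%. After the shift of all promoters was removed, 1 was wider (2.38%), against 0.115%, and 0 narrower, against 0.132%. By ranges, 6 of 63 (9.52%) were wider in every DIFF than in every PROLIF library, against 9.42% of all genes, and 5 (7.94%) were narrower, against 5.76%. The mean width was larger in DIFF for 27 of 63 (42.9%), against 58.1%.

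The head-to-head pair Hist1h2bh and Hist1h3f came nearest on the wider side. The promoter peak was 1001, 847 and 599 bp wide in PROLIF and 1913, 1852 and 1971 bp in DIFF, a change of 1.26 ± 0.18 in log2 width (SE, limma, n = 3 each, adjusted p = 0.101, and 0.0197 after the shift of all promoters was removed). In each PROLIF library the region held a separate peak over each gene, and in each DIFF library a single peak spanned both. The PROLIF width is that of the Hist1h3f peak in replicates 1 and 2 and of the Hist1h2bh peak in replicate 4. The change in width thus does not follow 1 peak. The percentiles ran from 91.1 to 93.5 in PROLIF and from 87.9 to 90.7 in DIFF, so the joined peak did not rank higher. The pair includes sequence that is not unique, with 75.6% and 67.9% of unique words.

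Hist1h2af came nearest on the narrower side. Its peak was 393, 384 and 424 bp wide in PROLIF and 99, 102 and 138 bp in DIFF, a change of −1.84 ± 0.28 in log2 width (SE, limma, n = 3 each, adjusted p = 0.106). In the 3 PROLIF libraries the peak covered the start of the gene, and in the 3 DIFF libraries it ended 26 to 41 bp upstream of it. This holds for the GENCODE start: the RefSeq start lies further upstream, and the DIFF peaks of replicates 2 and 4 covered it while that of replicate 1 did not. Its percentile was 56.3, 39.6 and 66.3 in PROLIF and 27.6, 24.5 and 54.8 in DIFF, with overlap, so in both states it was near the lower end of the members.

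Histone variants and the factors that act on these genes were occupied as well. Of 14 histone variant genes outside the clusters, many of which are expressed outside S phase or in germ cells, 11 had a promoter peak in all 6 libraries, with a median width of 830 bp and a median percentile of 90.4. Those without were germ-cell linker histones: H1foo and H1fnt had none, and Hils1 had a peak of 92 bp in 1 library. H2afz, an H2A variant at active promoters, was at percentiles of 92.8 to 97.2, and H1f0, the linker histone of resting cells, at 48.5 to 75.7. All 16 genes of histone gene transcription and mRNA processing were occupied in all 6 libraries, with a median percentile of 95.8 and a median width of 1041.25 bp. Among them Npat, the activator of histone genes in S phase, was at 90.6 to 99.3, Casp8ap2, a component of histone locus bodies, at 98.8 to 99.6, and Slbp at 91.1 to 96.5.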

How the data were processed

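Peak lists of 6 ATAC-seq libraries (50000 cells each) were used, grouped by the state and replicate number (1, 2 and 4) in the labels. Per the study's methods, the authors removed adapters with Cutadapt and low-quality bases with Trimmomatic, aligned the pairs to GRCm38 (mm10) by Bowtie2, had Picard mark duplicates, and ran MACS2 on single libraries for narrow peaks with no model and an FDR of 0.05. Versions, the treatment of reads that fit several places and any shift of cut sites are not given in the sources used here, and each can move peak edges in repeated genes. The deposited lists give positions, a score, a fold enrichment (a ratio to local background) and the −log10 p and q of each peak. The deposited score was not used further.

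A gene took the peak with the highest −log10 p of those within 1 kb of any GENCODE M21 start. The members, gene lists and rules were chosen with earlier results of these data known. Named members were those missing in some library, the 5 of highest lowest percentile, the 5 widest and 3 narrowest, those past a test or nearest to it, all of Hist2, Hist3 and Hist4, the testis genes and those with a printed sequence; Hist1h1a, Hist1h1c, Hist1h1d, Hist1h2ab, Hist1h3g, Hist1h4c, Hist1h4h and Hist1h4n were added after their values were seen. Pileups were solved from fold and p under a Poisson model and were whole within 0.05 reads for at least 99.99% of peaks. Libraries were compared with limma 3.58.1 (R 4.3.3, trend, two-sided, Benjamini-Hochberg over 12130 promoters). On simulated data with 200 of 12130 promoters changed, shifts of 0.5, 1 and 2 were recovered in 0%, 49.5% and 85.5% for log2 width and in 0%, 81% and 94% for score. The simulated data had no common shift, and the real fit of score called more promoters (865 higher and 175 lower). The rates for score need not hold for that fit. Peak matching was tested on simulated peaks. The smallest exact permutation p of 3 against 3 libraries is 0.1. Per the study's methods, replicates of a genotype were independent cultures; whether the states share cultures is not given in the sources used here. Python 3.11.15, numpy 2.4.6, pandas 2.3.3 and matplotlib 3.10.9 were used. RefSeq starts were matched for 61 of 67 members, and 60 lay within 100 bp of the GENCODE start. Alternatives were other distances, q of 0.01 or 0.001, lists of equal length (60006), the strongest 20000 peaks, gene starts alone, unique members, the widest peak, each library left out, the replicate block, no variance trend and the plain percentile; removal of the promoter-wide shift, RefSeq starts, the start base and leaving out both replicates 4 were added later.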

Additional observations from a re-analysis of the deposited data

How the results depend on the processing

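The count of members occupied in all 6 libraries stayed within 1.5 times of 63 under every alternative except the one limited to the 27 members with at least 80% of unique words, which gave 23; it was 46 with the strongest 20000 peaks, 54 with summits within 1 kb, 58 of 61 at RefSeq starts and 61 with the start base inside a peak. With the strongest 20000 peaks, 1 member had peaks in PROLIF alone, the mean number of occupied members differed by 1.33 and the median percentile by -4.48, and no member passed the test of rank in either direction (0 and 0). Over the unique members the median percentile differed by 7.11, and none was lower in rank (0). Hist1h3b is not among the unique members. The number of members higher in rank in DIFF, 2 as fitted, was 1 without a variance trend, 1 with the widest peak, 1 without both replicates 4 and 0 by plain percentile, and 1 to 3 when single libraries were left out (1 without DIFF replicate 1 or 2, and 3, with Hist1h4h, without PROLIF replicate 1). The number lower in rank, 1 as fitted, was 3 after removal of the promoter-wide shift, 2 with lists of equal length, 0 by plain percentile, and 1 to 2 when single libraries were left out (2, with Hist1h2ab, without PROLIF replicate 4 or DIFF replicate 2). In width, 1 member was wider after removal of the shift, 1 narrower without a variance trend, and 0 to 1 wider when single libraries were left out (1, Hist1h2bh with Hist1h3f, without PROLIF replicate 4). The rank change of Hist1h1b turned to -0.72 within 500 bp. That of Hist1h1a, -0.08 as fitted, turned to 0.71 within 500 bp and 0.71 by summit, and ran from -0.22 to 0.03 when single libraries were left out. Single calls of rank kept their direction otherwise; adjusted p ranged from 0.0031 to 0.0584 for Hist3h2ba, from 0.000872 to 0.058 for Hist1h3b and from 0.00244 to 0.093 for Hist1h1b (limma). The causes were not tested.

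Libraries of the 2 states were compared by residuals, not by the ranks or widths themselves. From each promoter the mean over the libraries of its state was subtracted, and then the mean of each library. Residuals of same-numbered libraries correlated weakly, at 0.0498 to 0.201 in score and 0.0301 to 0.0542 in log2 width. Each of these values lay above those of different numbers, at -0.169 to 0.00597 and -0.0429 to 0.00204. Whether same-numbered libraries came from the same culture is not given in the sources used here. With the replicate block 2 members were higher and 1 lower in rank and 0 passed for width, in either direction. The peak of the testis pair was called in the 2 longest lists only. Read totals were not used, and what depth limits was not tested.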
